A study of Mus musculus with 16 samples.

Results

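The 4 adult haemoglobin genes counted in these tumours, Hba-a1, Hba-a2, Hbb-b1 and Hbb-b2, and the haem synthesis gene Alas2 are described here over 16 whole tumours. They are 5 of the 23354 mouse gene symbols with a count in every library. They were selected on their lower values in the panobinostat-treated tumours of these same libraries. In every comparison that sets panobinostat-treated tumours against the others, their levels and changes are therefore a description without a test.

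Each tumour was a xenograft of AU565(pv), a human breast cancer line with the HER2 receptor, in the mammary fat pad of a SCID mouse, a strain without mature T and B lymphocytes. Treatment started at a tumour area of 20 to 25 mm2, and tumours were taken on day 2. All agents went into the peritoneum, and each group held 4 mice. Vehicle mice received D5W on days 0 and 1 and PBS on day 0. Trastuzumab mice received the anti-HER2 antibody trastuzumab at 10 mg/kg together with D5W. Panobinostat mice received the histone deacetylase inhibitor panobinostat at 15 mg/kg on days 0 and 1 together with PBS, and combination mice received both drugs. The day of trastuzumab is day 0 in the treatment protocol and day 1 in the design text. The age of the mice is not given in the sources used here. Whole tumours mix human tumour cells with mouse host cells, and the counts are for mouse symbols. In such bulk samples, fewer cells of a type and less RNA per cell cannot be told apart. Total counts ran from 4848244 to 8140782 per library, and all 5 genes passed the filter on low counts, as did 15610 genes in all.

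Adult haemoglobin joins alpha chains and beta chains with haem, the iron-holding group that binds oxygen. Red cell precursors make globin RNA under transcription factors such as GATA1 and KLF1. Alas2 is the erythroid form of the enzyme of the first step of haem synthesis, and Alas1 is the form used by other cells. Reticulocytes, the young red cells of blood, have lost the nucleus but still hold globin RNA.

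The sequences just upstream of the RefSeq starts of these genes are shown first, with letters from RefSeq on GRCm38.p6. Capitals mark GATAA, the core read by GATA factors, CACCC, the core read by KLF factors, CCAAT and TATAA, each on either strand, with touching or overlapping matches run together. The Hba-a1 sequence is chr11:32283462-32283671 on the plus strand. The sequence upstream of Hba-a2 was identical over the 247 bases compared, after a shift of 3 bases, and is not repeated. The adult beta-globin genes on the reference chromosome 7 are named Hbb-bs and Hbb-bt, and their sequences are chr7:103827929-103828138 and chr7:103813924-103814133 on the minus strand. The deposited symbols Hbb-b1 and Hbb-b2 are not placed on that chromosome sequence. Which locus the authors' annotation gave them is unknown, so no position is given for them. The Alas2 sequence is chrX:150547207-150547416 on the plus strand.
Hba-a1: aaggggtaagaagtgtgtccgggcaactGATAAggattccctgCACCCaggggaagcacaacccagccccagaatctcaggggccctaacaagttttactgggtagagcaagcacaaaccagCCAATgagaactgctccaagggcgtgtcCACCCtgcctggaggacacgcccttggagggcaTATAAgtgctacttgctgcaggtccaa
Hbb-bs: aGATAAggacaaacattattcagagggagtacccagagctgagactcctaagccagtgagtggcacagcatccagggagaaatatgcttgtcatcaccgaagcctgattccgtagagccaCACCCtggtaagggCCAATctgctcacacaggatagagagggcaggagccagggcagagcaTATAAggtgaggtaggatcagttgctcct
Hbb-bt: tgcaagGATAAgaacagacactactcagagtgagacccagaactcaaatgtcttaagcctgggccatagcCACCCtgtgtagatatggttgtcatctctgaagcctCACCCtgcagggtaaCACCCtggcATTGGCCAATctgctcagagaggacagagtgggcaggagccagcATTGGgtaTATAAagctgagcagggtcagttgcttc
Alas2: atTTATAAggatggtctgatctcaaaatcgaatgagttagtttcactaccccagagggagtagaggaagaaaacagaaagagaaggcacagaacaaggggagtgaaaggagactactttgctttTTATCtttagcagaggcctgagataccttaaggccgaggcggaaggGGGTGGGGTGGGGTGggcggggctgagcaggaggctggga

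Within the 250 bases before the start, GATAA and CACCC were both present upstream of Hba-a1, Hba-a2, Hbb-bs, Hbb-bt and Alas2. Both motifs occurred in 10.1% of the 32851 RefSeq promoters searched the same way. The 4 globin sequences also held CCAAT and TATAA, a set of 4 motifs that occurred in 0.968% of promoters. Those of Hba-a1 and Hba-a2 were identical where compared and are not separate cases. The Alas2 sequence held TATAA and no CCAAT. Singly, GATAA occurred in 22.6% of promoters, CACCC in 52.0%, CCAAT in 33.8% and TATAA in 22.8%. These matches describe letters in a window and are not evidence of binding.

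The alpha-globin genes are near-identical copies, which limits how far reads can be divided between them. In the GENCODE M21 annotation of the same build, Hba-a1 lies at chr11:32283511-32284465 and Hba-a2 at chr11:32296489-32297298, both on the plus strand. Their coding sequences have 426 bases each and differ at 1 base, C381T, counted from the first coding base of Hba-a1, with the Hba-a1 base first. The 41 coding bases around it show the difference in capitals.
Hba-a1: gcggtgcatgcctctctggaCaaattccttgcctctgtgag
Hba-a2: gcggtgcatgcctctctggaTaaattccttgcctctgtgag

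Of all 50-base windows of the Hba-a1 transcript, 67.5% also occurred in Hba-a2, and 86.9% of the Hba-a2 windows occurred in Hba-a1. The coding sequences of Hbb-bs and Hbb-bt, of 441 bases each, likewise differed at 1 base. Values of single copies are uncertain for this reason, and the sum over the 4 globin symbols is given beside them. Whether reads that match more than a single copy were dropped is not given in the sources used here. If they were, the sum, the globin levels per length and the ratio of Alas2 to globin are affected as well. Alas2 lies at chrX:150547375-150570638 on the plus strand, and 311 of its 2403 exon bases, 12.9%, are shared with exons of Apex2 on the minus strand. Since the library kit does not mark strand, Apex2 reads in that stretch cannot be told apart from those of Alas2.

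Summed globin counts were low in all tumours, at 0.00794% to 0.110% of a library's total. Levels below are in CPM, read counts relative to library totals scaled by TMM, edgeR's trimmed-mean scaling. The summed globin level of the vehicle tumours was 346.8 in mouse 3, 479.6 in mouse 6, 307.2 in mouse 21 and 1119 in mouse 29. In the trastuzumab tumours it was 806.4 in mouse 12, 409.4 in mouse 15, 573.2 in mouse 20 and 238.7 in mouse 24. These 8 values interleaved, and the widest gap within a group was between vehicle mouse 29 and the other vehicle mice. In the panobinostat tumours the sum was 154.1 in mouse 4, 204.1 in mouse 7, 135.0 in mouse 8 and 201.7 in mouse 13. In the combination tumours it was 77.98 in mouse 2, 88.71 in mouse 11, 107.4 in mouse 16 and 118.9 in mouse 22. The highest panobinostat-treated tumour thus stood below the lowest tumour without panobinostat, and the 4 combination tumours stood below the 4 tumours with panobinostat alone.

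The groups therefore ordered as vehicle, at 563 ± 378 (SD, n = 4), trastuzumab at 507 ± 242, panobinostat at 174 ± 34.6 and combination at 98.3 ± 18.4 CPM. Vehicle and trastuzumab, neighbours in this order, did not differ beyond their spread. Each of the 4 globin genes had the same order of group means. Alas2 had trastuzumab first, at 5.22 ± 2.14 CPM, then vehicle at 4.87 ± 2.63, panobinostat at 1.50 ± 0.565 and the combination at 1.18 ± 0.900, and within each of these neighbouring pairs with or without panobinostat the ranges overlapped. From lowest to highest tumour the summed level spanned 3.64-fold in vehicle, 3.38-fold in trastuzumab, 1.51-fold in panobinostat and 1.52-fold in the combination. The vehicle span rested on mouse 29, without which it was 1.56-fold, and the trastuzumab span was 1.97-fold without mouse 24.

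The alpha-chain gene Hba-a1 had 73.43, 95.89, 63.28 and 262.6 CPM in vehicle mice 3, 6, 21 and 29, and 185.4, 94.01, 134.4 and 53.32 in trastuzumab mice 12, 15, 20 and 24. With panobinostat it had 35.27, 43.35, 28.48 and 47.25 in mice 4, 7, 8 and 13, and with the combination 18.12, 22.72, 24.77 and 28.39 in mice 2, 11, 16 and 22. The combination range ended just below the panobinostat range, and both lay below every other tumour.

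Hba-a2, the other alpha-chain copy, had 74.24, 105.2, 58.58 and 235.6 CPM in the vehicle mice in the same order and 177.7, 77.39, 107.9 and 45.30 in the trastuzumab mice. It had 33.84, 42.33, 30.09 and 44.30 in the panobinostat mice and 16.02, 18.94, 20.19 and 24.33 in the combination mice. The same vehicle mouse, 29, was highest for both copies, and the lowest trastuzumab mouse, 24, only just exceeded the highest panobinostat mouse.

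Hbb-b1, a beta-chain gene, had 127.7, 184.7, 126.4 and 421.0 CPM in the vehicle mice and 297.7, 162.4, 218.7 and 91.48 in the trastuzumab mice. It had 58.78, 81.63, 51.05 and 72.36 with panobinostat and 30.58, 34.96, 41.34 and 45.88 with the combination. The panobinostat-treated groups were again separate from each other and from the rest.

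Hbb-b2, the second beta-chain symbol, had 71.42, 93.80, 58.93 and 199.7 CPM in the vehicle mice and 145.6, 75.65, 112.1 and 48.61 in the trastuzumab mice. It had 26.18, 36.77, 25.43 and 37.74 with panobinostat and 13.27, 12.09, 21.15 and 20.28 with the combination. Its combination values fell into a lower pair, mice 2 and 11, and a higher pair, mice 16 and 22.

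Alas2 was counted far less often, with 16 to 57 reads in each tumour without panobinostat and 2 to 13 in each panobinostat-treated tumour. It had 4.02, 3.38, 3.30 and 8.78 CPM in the vehicle mice and 7.83, 4.43, 5.84 and 2.79 in the trastuzumab mice. It had 0.891, 1.18, 1.79 and 2.13 with panobinostat and 0.324, 0.583, 2.29 and 1.52 with the combination. The panobinostat-treated tumours all lay below the others, but the panobinostat and combination ranges overlapped. The lowest value, in combination mouse 2, rests on 2 reads, and the exact 95% Poisson interval of that count, which covers counting error only, runs from 0.242 to 7.22 reads.

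**Figure D1:**
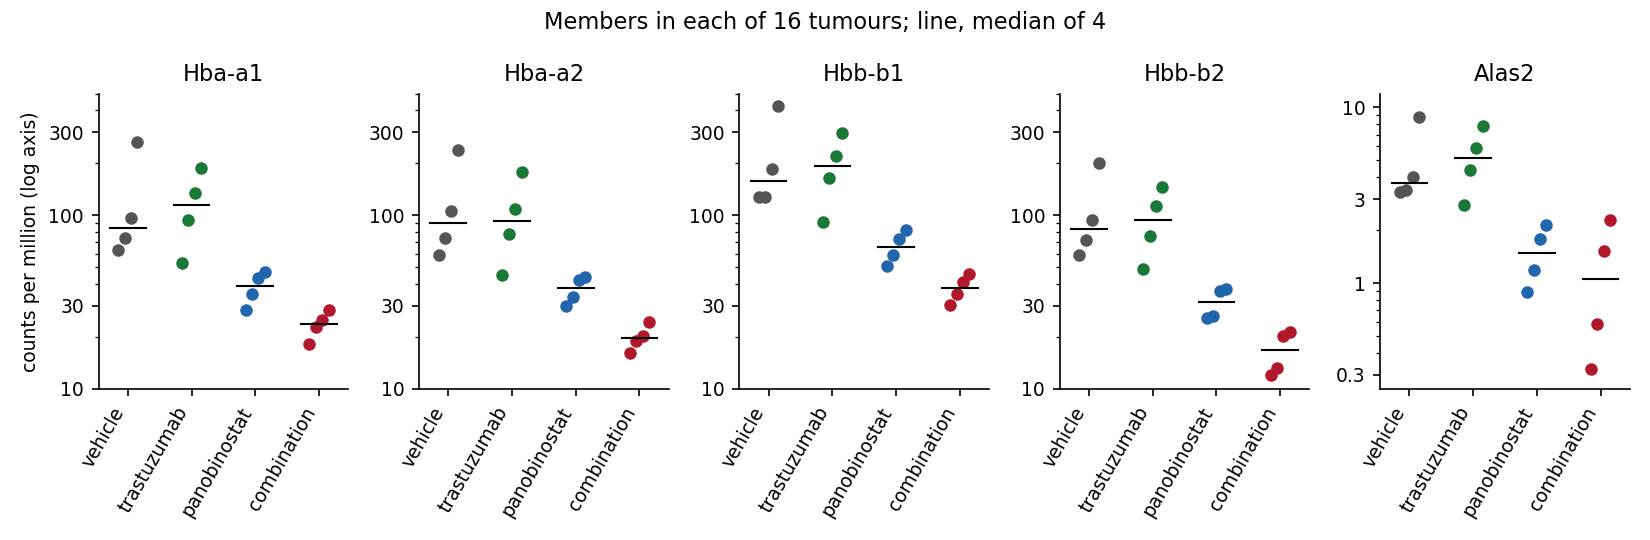
CPM (log axis, TMM-scaled) of Hba-a1, Hba-a2, Hbb-b1, Hbb-b2 and Alas2, with 1 point per tumour, 4 tumours per group and a line at each group's median. All 8 panobinostat-treated tumours lie below the 8 others in every panel, and vehicle mouse 29 is the highest point in each.

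For all 5 genes, the 8 panobinostat-treated libraries stood below the 8 others. Among the 15610 genes tested, 0.243% had this pattern, which is 38 genes. Because the genes were chosen by their fall, nothing is read from that count. For 4 of the 5, the globins, the 4 combination libraries also stood below the 4 panobinostat libraries, which held for 1.17% of all genes tested. Nothing is read from this count either, since low combination values also entered the choice. Per length, using GENCODE transcripts, the vehicle level was 177 ± 134 CPM per kilobase (SD, n = 4) for Hba-a1, 214 ± 145 for Hba-a2 and 2.39 ± 1.29 for Alas2. In combination tumours these levels were 33.6 ± 6.13, 35.9 ± 6.23 and 0.578 ± 0.442. Levels per length depend on the annotated transcripts, of 699 bases for Hba-a1 and 554 for Hba-a2. The GENCODE start of Hba-a1 lies within the sequence shown as upstream of its RefSeq start, so these annotations differ.

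The fitted changes of panobinostat alone against vehicle were close to each other for the 5 genes. The log2 change was -1.68 (SE 0.41) for Hba-a1, -1.65 (SE 0.40) for Hba-a2, -1.71 (SE 0.37) for Hbb-b1, -1.75 (SE 0.37) for Hbb-b2 and -1.69 (SE 0.48) for Alas2. Across all tested genes, edgeR's quasi-likelihood test called 0.141% higher and 0.0512% lower in this comparison, at an adjusted p under 0.05. The summed globin level, compared as the difference of mean log2 values, was lower by 1.52 on the log2 scale, a 2.86-fold difference. Without vehicle mouse 29, the tumour with most globin, that log2 difference was -1.12, and the fitted log2 changes were -1.01 for Hba-a1, -1.08 for Hba-a2, -1.15 for Hbb-b1, -1.24 for Hbb-b2 and -1.23 for Alas2.

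With both drugs the changes against vehicle were larger in size. The log2 change was -2.40 (SE 0.42) for Hba-a1, -2.57 (SE 0.42) for Hba-a2, -2.49 (SE 0.38) for Hbb-b1, -2.67 (SE 0.38) for Hbb-b2 and -2.07 (SE 0.49) for Alas2. The share of all tested genes called in this comparison was 1.7% higher and 0.5% lower. Summed globin was 5.04-fold lower on the same mean log2 scale, with a log2 difference of -2.33, and of -1.94 without vehicle mouse 29. Leaving out that mouse also gave fitted log2 changes from -1.61 for Alas2 and -1.72 for Hba-a1 to -2.16 for Hbb-b2.

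Against trastuzumab alone, the combination gave log2 changes of -2.31 (SE 0.42) for Hba-a1, -2.36 (SE 0.42) for Hba-a2, -2.33 (SE 0.38) for Hbb-b1, -2.52 (SE 0.38) for Hbb-b2 and -2.17 (SE 0.48) for Alas2. Of all tested genes, 0.468% were called higher and 0.16% lower. Summed globin was 4.76-fold lower. This comparison shares the combination libraries with the one against vehicle, so the pair are not independent.

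**Figure D2:**
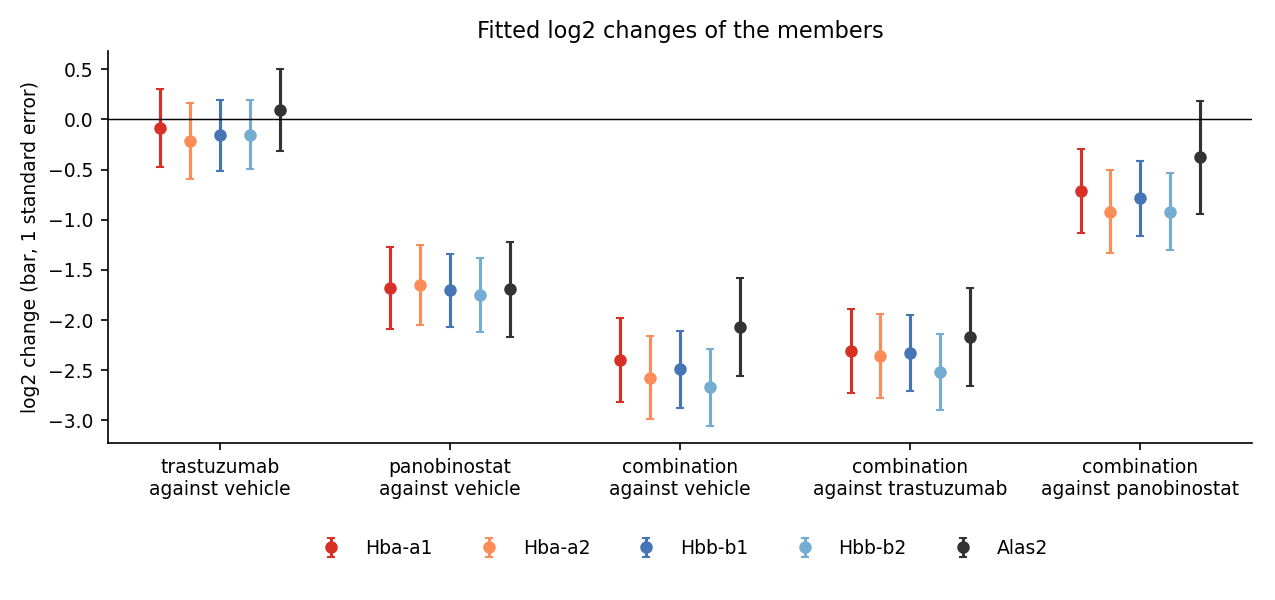
Fitted log2 change of each gene in 5 comparisons of the 4 groups (n = 4 tumours each), with bars of 1 standard error. Points lie near 0 for trastuzumab against vehicle, between -1.75 and -1.65 for panobinostat against vehicle, and below -2 where the combination is set against a group without panobinostat.

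Whether trastuzumab went with a change in these genes was tested, although earlier results of this comparison were known. The genes were not chosen on a trastuzumab difference, but the values of all 4 groups entered their choice. Trastuzumab alone gave no call. The log2 change against vehicle ran from -0.21 (SE 0.38) for Hba-a2 to 0.10 (SE 0.41) for Alas2, with an adjusted p of 1.00 for all 5 genes in edgeR's quasi-likelihood test. The summed globin level differed by -0.08 on the log2 scale, with the trastuzumab value lower in 8 of 16 pairs of tumours (exact permutation test, two-sided, p = 0.886). The sign of that difference rested on single tumours: it was 0.31 without vehicle mouse 29 and 0.23 without trastuzumab mouse 24. Over all genes the share called was 0% of 15610 by edgeR, with 549 genes at an unadjusted p under 0.05 and 12 called by DESeq2.

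Adding trastuzumab to panobinostat was compared in the same way. Low combination values had helped to choose these genes, so a lower level in the combination was favoured in advance. The p-values of this comparison therefore cannot decide whether a difference goes with trastuzumab. The log2 change of the combination against panobinostat alone was -0.71 (SE 0.42) for Hba-a1, -0.92 (SE 0.41) for Hba-a2, -0.79 (SE 0.37) for Hbb-b1, -0.92 (SE 0.38) for Hbb-b2 and -0.38 (SE 0.56) for Alas2. The unadjusted p of edgeR's quasi-likelihood test was 0.0277 for Hbb-b2, 0.0407 for Hba-a2, 0.0485 for Hbb-b1, 0.106 for Hba-a1 and 0.512 for Alas2. After adjustment over all genes every p was at least 0.976, and none of the 5 passed. The share of genes called in this comparison was 0% as well, with 700 genes at an unadjusted p under 0.05 and 14 called by DESeq2.

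Summed globin was 1.76-fold lower in the combination than with panobinostat alone, a log2 difference of -0.82, and it was lower in 16 of 16 pairs of tumours. The exact two-sided permutation test gave p = 0.0286, which is the smallest value that 4 against 4 can give. Adjusted over the 2 trastuzumab comparisons it was 0.0571 and did not pass 0.05. Because low combination values had helped to choose the genes, this p cannot decide whether the difference goes with trastuzumab. The 4 globin genes are not 4 separate observations of this difference, since they share tumours and reads. The difference between the panobinostat effect with and without trastuzumab ran from -0.47 (SE 0.70) for Alas2 to -0.77 (SE 0.52) for Hbb-b2 on the log2 scale. It uses the panobinostat comparisons and carries no test here. Over all genes, 0% were called for this interaction, with 279 at an unadjusted p under 0.05 and 0 by DESeq2.

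The shares of the 4 globin genes varied far less than their sum. The alpha symbols held between 39.7% and 47.0% of the globin counts in the 16 tumours. The lowest share, in vehicle mouse 21, had an exact 95% binomial interval of 37.4% to 42.0%, and the highest, in combination mouse 11, one of 42.9% to 51.0%. These intervals, of the extremes of 16 tumours, did not overlap. By group this share averaged 42.2% ± 2.00 (SD, n = 4) in vehicle, 42.6% ± 1.65 in trastuzumab, 43.9% ± 1.54 in panobinostat and 44.2% ± 2.11 in combination tumours. Hbb-b1 took 64.1% to 74.3% of the beta counts. These are shares of reads, not divided by transcript length.

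Between the alpha copies, Hba-a1 took 47.7% to 55.5% of the alpha counts. Its mean share was 50.5% ± 2.27 in vehicle, 53.9% ± 1.95 in trastuzumab, 50.5% ± 1.30 in panobinostat and 54.1% ± 0.869 in the combination. The combination values all exceeded the panobinostat values (exact permutation test, two-sided, p = 0.0286, the smallest possible), but the p adjusted over the 8 tests of shares was 0.229. The trastuzumab and vehicle values overlapped (exact permutation test, p = 0.0857, adjusted 0.343). Hbb-b1's share of beta counts and the alpha share gave adjusted p of at least 0.629 in both comparisons by the same exact permutation test.

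Alas2 amounted to 7.04 to 11.7 reads per 1000 globin reads in the tumours without panobinostat and to 4.15 to 21.3 in the panobinostat-treated tumours. The group means were 9.31 ± 2.21 in vehicle, 10.6 ± 0.851 in trastuzumab, 8.85 ± 3.71 in panobinostat and 11.2 ± 7.64 in the combination. The wider spread in the combination came with Alas2 counts of 2 to 12 reads. The exact permutation tests of the ratio gave adjusted p of 0.629 for trastuzumab against vehicle and 0.943 for the combination against panobinostat.

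As a description over the 16 libraries, which share groups and sequence copies, the Pearson correlation of log2 levels between globin genes was 0.986 to 0.995. Between a globin gene and Alas2 it was 0.901 to 0.934. After subtraction of each group's mean, which leaves only the variation between tumours of the same treatment, the correlation was 0.959 to 0.990 between globins and 0.697 to 0.803 with Alas2.

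**Figure D3:**
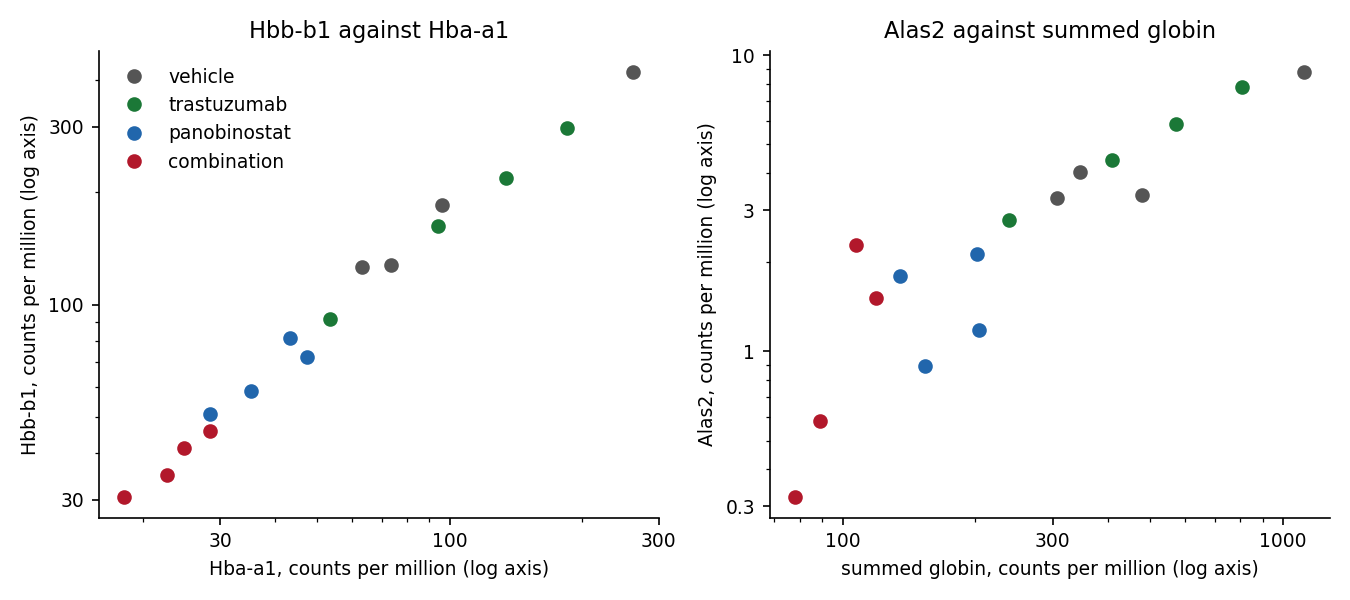
CPM on log axes, 1 point per tumour, coloured by group: Hbb-b1 against Hba-a1 at left, and Alas2 against the summed globin level at right. The globins lie along a single line through all 4 groups, while Alas2 scatters more among the panobinostat-treated tumours, where it has 2 to 13 reads.

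Some other genes of red cells, among them Slc4a1, Gata1 and Klf1, gave few counts in any group. Slc4a1, the band 3 anion exchanger of the red cell membrane, had 0 to 4 reads per library and was at 0 in 6 of 16. Its level was 0.248 ± 0.261 CPM in vehicle, 0.112 ± 0.136 in trastuzumab, 0.252 ± 0.211 in panobinostat and 0.127 ± 0.180 in the combination (SD, n = 4 each). The erythroid transcription factors Gata1 and Klf1 had 0 to 3 reads each, at 0 in 5 and 6 libraries. Differences in these genes were not detectable at this depth. Ahsp, the alpha-globin chaperone, had no row under that symbol in the deposited counts.

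The list of 33 red cell membrane and maturation genes had 17 genes that could be tested, and 0 were called in any comparison by edgeR or by DESeq2. At an unadjusted p under 0.05 there were 2 for panobinostat and 3 for the combination, each against vehicle. Its median log2 change in the combination against vehicle was -0.03, beside -0.01 over all tested genes. Listed genes with too few reads were left out of the test, and which cells gave the reads of the 17 is not known. These values therefore do not show whether red cell RNA changed. The summed level of the 28 listed genes with values ran from 460 to 561 CPM in vehicle, 463 to 622 in trastuzumab, 459 to 628 in panobinostat and 521 to 645 in the combination.

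Of 12 tested erythroid regulators, 1 was called. Myb, a transcription factor of blood progenitors, rose in the combination against vehicle by 1.46 on the log2 scale (SE 0.22, edgeR adjusted p = 0.00216), from 2.83 ± 0.902 to 7.82 ± 1.26 CPM. Epor, the erythropoietin receptor, had 9.64 ± 3.26 CPM in vehicle and 6.53 ± 3.30 in the combination (edgeR adjusted p = 0.642). The median of the list was 0.08 in that comparison.

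Haem synthesis outside Alas2 showed 0 calls among 16 tested genes in every comparison by edgeR and by DESeq2, with 1 at an unadjusted p under 0.05 for the combination against vehicle. Alas1 had 57.5 ± 7.07 CPM in vehicle, 61.9 ± 9.39 in trastuzumab, 58.6 ± 6.39 in panobinostat and 59.9 ± 2.13 in the combination. Fech, which inserts iron into protoporphyrin to form haem, had 58.9 ± 3.46 in vehicle and 54.4 ± 1.54 in the combination. The list's median log2 change in the combination against vehicle was -0.06.

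Of 20 tested genes of haem and iron handling, 0 were called by edgeR, with 4 at an unadjusted p under 0.05 for trastuzumab and 3 for the combination against vehicle. DESeq2 called 1, the haem-binding protein gene Hpx, for trastuzumab against vehicle. Hmox1, which breaks down haem, had 159 ± 47.3 CPM in vehicle, 99.1 ± 8.27 in trastuzumab, 122 ± 30.2 in panobinostat and 105 ± 12.97 in the combination. The transferrin receptor gene Tfrc had 58.1 ± 28.3 in vehicle and 33.4 ± 13.2 in the combination (edgeR adjusted p = 0.384). The iron exporter gene Slc40a1 had 36.9 ± 13.8 and 27.8 ± 6.32, and Hp, whose product binds free haemoglobin, had 1420 ± 428 and 1644 ± 320.

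Of 11 other globin genes listed, 3 had values and 1, the cytoglobin gene Cygb, was tested, with 112 ± 31.6 CPM in vehicle and 79.7 ± 18.8 in the combination (edgeR adjusted p = 0.261). The embryonic globin symbols Hbb-y, Hbb-bh1 and Hba-x had no row in the deposited counts. Some genes beside the members on the chromosome were also measured. Within 100 kb of the alpha-globin genes, 5 of 9 protein-coding genes were tested and 0 were called in any comparison, with log2 changes from -0.20 to 0.12 in the panobinostat comparisons. Nprl3, whose introns hold distal control elements of the alpha-globin genes, was among them. Within 100 kb of Alas2, 4 of 4 were tested and 0 were called, with log2 changes from -0.16 to 0.40. Of 13 protein-coding genes within 100 kb of Hbb-bs and Hbb-bt, 0 had values, so nothing is known of that locus.

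**Figure D4:**
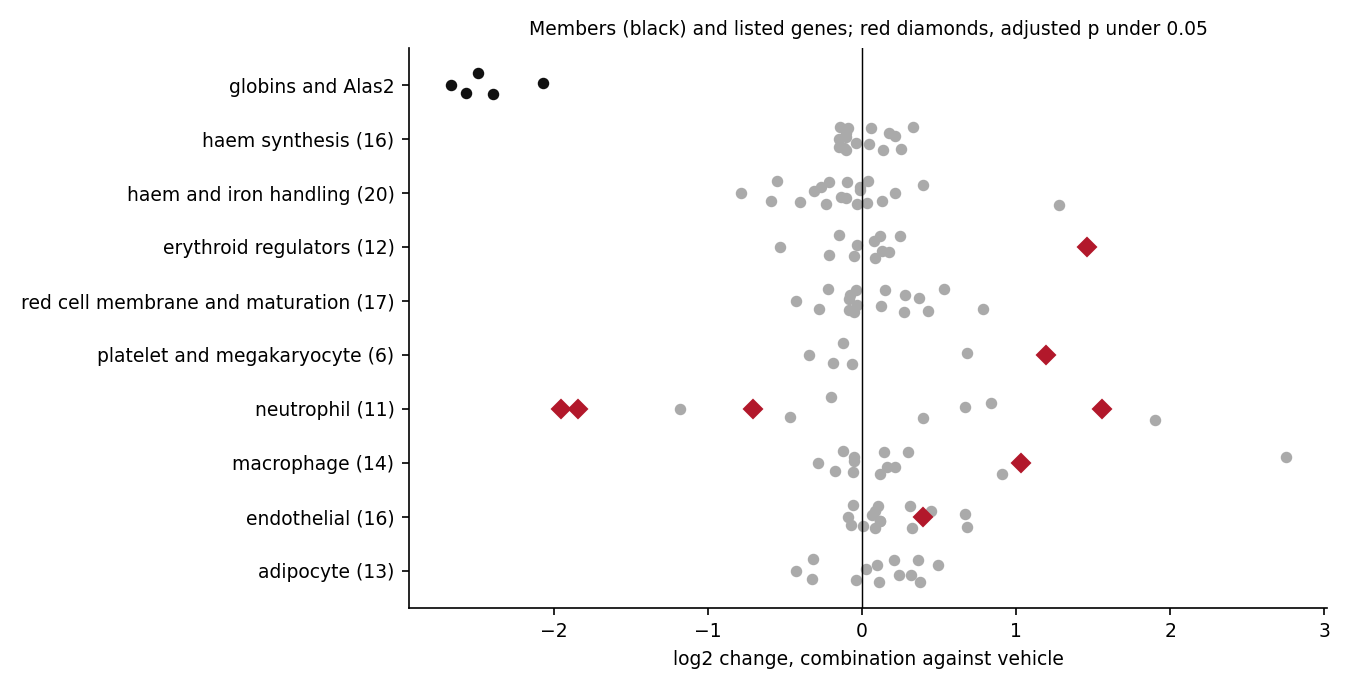
Fitted log2 change in the combination against vehicle (n = 4 tumours each) for the 5 members, in black, and for the tested genes of 9 lists, with the number tested in brackets and red diamonds at an edgeR adjusted p under 0.05. The members lie between -2.67 and -2.07. List medians were -0.06 for haem synthesis, -0.10 for haem and iron handling and -0.03 for red cell membrane and maturation. Genes with too few reads to test are not shown.

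Markers of other cells carried by blood or lying in the tumour were set beside the globins. Of 11 tested neutrophil markers, edgeR called 4 in the combination against vehicle, 3 lower and 1 higher, beside 0.5% lower and 1.7% higher over all genes. DESeq2 called 5 there, and S100a8 and S100a9 for panobinostat alone against vehicle, where edgeR called 0. At an unadjusted edgeR p under 0.05 there were 7 in each of these comparisons, and 9 for the combination against trastuzumab. In the combination against vehicle, S100a8 and S100a9, the calprotectin subunits abundant in neutrophils, were lower by log2 changes of -1.85 (SE 0.27, edgeR adjusted p = 0.00184) and -1.96 (SE 0.34, adjusted p = 0.00488). The chemokine receptor gene Cxcr2 changed by -0.71 (adjusted p = 0.0320) and the formyl peptide receptor gene Fpr2 by 1.56 (adjusted p = 0.00964). The Cxcr2 call ended under 8 of 14 alternatives, among them leaving out vehicle mouse 3, 6 or 21 or combination mouse 2, 11 or 16, with an edgeR adjusted p of up to 0.154. S100a8 went from 30.2 ± 6.22 CPM in vehicle and 27.6 ± 9.63 in trastuzumab to 14.7 ± 3.41 in panobinostat and 8.49 ± 2.95 in the combination. Against trastuzumab, S100a8, S100a9, Cxcr2 and Retnlg, another neutrophil gene, were called lower, and all 4 calls ended when trastuzumab mouse 15 or 20 or combination mouse 11 was left out. Ly6g, a defining neutrophil marker, was at 0 in 12 of 16 libraries. The summed level of the 16 neutrophil genes with values was 295 to 420 in vehicle and 276 to 378 in the combination.

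Of 6 tested platelet and megakaryocyte genes, edgeR called 1. Pf4, platelet factor 4, rose in the combination against vehicle by 1.20 on the log2 scale (SE 0.28, edgeR adjusted p = 0.0316), a call that ended when any of 6 libraries was left out. DESeq2 called Pf4 and Vwf in that comparison, and Pf4 for panobinostat alone against vehicle, where edgeR called 0. The level of Pf4 was 15.5 ± 7.66 CPM in vehicle, 18.5 ± 5.37 in trastuzumab, 40.5 ± 6.79 in panobinostat and 35.9 ± 8.75 in the combination. Ppbp, another platelet chemokine, had 0 to 5 reads. The summed level of the 13 listed genes with values was 323 to 367 in vehicle and 263 to 473 in the combination. The part of neutrophils or platelets in the globin differences was not tested.

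Of 16 endothelial markers, edgeR called 1, Eng, an endothelial co-receptor, by 0.40 in the combination against vehicle (edgeR adjusted p = 0.0462). That call was ended by 9 of 14 alternatives. DESeq2 called Eng and Vwf in that comparison, and Eng in the combination against trastuzumab. Pecam1 and Cdh5, which mark vessel lining, had 91.5 ± 27.0 and 70.9 ± 18.1 CPM in vehicle and 115 ± 9.66 and 77.0 ± 11.9 in the combination. Summed endothelial levels ran from 549 to 741 in vehicle and from 693 to 795 in the combination, so the groups overlapped. The part of vessels in the globin differences was not tested. Of 14 macrophage markers, 1 was called in the combination against vehicle, Fcgr1, an Fc receptor, higher by 1.03 (edgeR adjusted p = 0.00129). It was also called higher against trastuzumab, by 0.72 (edgeR adjusted p = 0.0389), a call that 6 of 14 alternatives ended. For panobinostat alone against vehicle, Fcgr1 was called by DESeq2 and not by edgeR. Adipocyte markers, 13 tested, had 0 calls in any comparison by edgeR or DESeq2, and their sum varied from 2693 to 16819 CPM over the tumours. Of 9 tested luminal epithelial genes, to which human reads could add, edgeR called 0 in any comparison and DESeq2 called Epcam in the combination against vehicle.

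Likeness to the summed globin level was measured as the Pearson correlation of log2 levels over the 16 libraries, apart from the members. The closest genes were Ciao1 (0.88), Adipor1 (0.87), Dennd2a (0.87), Ypel3 (0.86) and Osgin1 (0.86). Next came Hist1h2bc (0.85), Sqstm1 (0.83), Hist1h2bl (0.83), Id3 (0.83) and 2210404O07Rik (0.82). Their changes were small in size beside those of the globins: Ciao1 had 57.9 CPM in vehicle and 50.1 in the combination. Osgin1 had 11.2 and 5.51. By the same measure S100a8 stood at 0.71, S100a9 at 0.72 and Pf4 at -0.49.

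After each group's mean was subtracted, another set came first: Rab1b (0.93), Il2ra (0.92), Itpk1 (0.91), Ankrd40 (0.91), St3gal3 (0.91), 4833439L19Rik (0.91), Desi1 (0.90), Acot7 (0.89), Ppp1r7 (0.89) and Gnai2 (0.88). These 10 and the 10 above shared 0 genes. Within groups S100a8 stood at -0.39, S100a9 at -0.24 and Pf4 at 0.76. These correlations are descriptions over 16 libraries in 4 groups and were picked as the highest among all tested genes.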

How the data were processed

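The deposited table holds unnormalized read counts by mouse symbol for the tumours of 16 mice, 4 in each of 4 groups. Per the submitters' processing notes, CASAVA 1.8.2, TopHat2 and HTSeq were used with mm10, with annotation release, settings and treatment of human reads not given in the sources used here. Of 24681 symbols, 1327 held a dot in the 8 panobinostat-treated libraries and were left out. No vehicle or trastuzumab library held a dot, so the deposited values differ in form along the panobinostat split. Any effect of this on the globin counts cannot be told apart from treatment.

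Counts were tested with edgeR 4.0.16 in R 4.3.3 (TMM scaling, filterByExpr, quasi-likelihood F test, 1 mean per group over all libraries, Benjamini-Hochberg adjustment over 15610 genes, threshold 0.05), with DESeq2 1.42.0 as an alternative. The script was tested on simulated data. The summed globin level and the shares of counts were compared with exact permutation tests in scipy 1.17.1. Standard errors are the log2 change over the root of the F value. Other settings tried were another scaling, no filter, a fit of the compared groups only, the globins as 1 row and each library left out. The members and gene lists were chosen with earlier results of these data known. Named genes were the members, a short list of red cell, haem and blood genes, every listed gene that was called, and the 10 genes most like the summed globin level by each measure. A few of these are not reported here. Of the listed genes, 6 were found under older symbols. Each library came from its own mouse, and no library was paired with another. Intervals cover counting error only.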

Additional observations from a re-analysis of the deposited data

Results flagged for a closer look

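Among 84 groups of 4 values examined for a library far from the other 3, 5 were found, where chance alone would give about 1 in 20. Vehicle mouse 29 stood apart for Hba-a1, at 262.6 CPM, and for Alas2, at 8.78. In the summed red cell membrane and maturation list, the lowest vehicle library, at 460.3 CPM, and the highest trastuzumab library, at 622.0, stood apart. In the summed haem synthesis list it was the highest trastuzumab library, at 724.4.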

How the results depend on the processing

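In the panobinostat comparisons, all 231 values of the 5 genes and of the summed globin level under the alternatives stayed below 0. They ran from -2.86 to -1.01 on the log2 scale. The smallest change, -1.01, was that of Hba-a1 for panobinostat against vehicle without vehicle mouse 29, beside -1.68 with all libraries. For trastuzumab against vehicle the sign was not stable. The summed globin difference ran from -0.35 to 0.31 when 1 library was left out. Without vehicle mouse 29 the log2 change was 0.59 for Hba-a1, 0.37 for Hba-a2, 0.40 for Hbb-b1 and 0.35 for Hbb-b2. Without trastuzumab mouse 24 it was 0.17, 0.045, 0.088 and 0.081, and without trastuzumab mouse 15 it was 0.0013 for Hba-a1. For Alas2 it was -0.044 without vehicle mouse 6 or 21 and -0.19 without trastuzumab mouse 12. The lowest values of the globin genes over these omissions were -0.41, -0.63, -0.46 and -0.44 in the same order, and the highest of Alas2 was 0.56. None of these passed the test. For the combination against panobinostat the summed difference ran from -0.93 to -0.71. Among erythroid, haem and iron genes, DESeq2 called 1 gene for trastuzumab against vehicle and 1 for the combination against trastuzumab, where edgeR called 0, and in the combination against vehicle leaving out 1 library gave 1 to 2 calls. The cause was not tested. No paired analysis was possible because no mouse number occurs in more than 1 group. Alas2 counts limit what its changes can show.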
